A study of Mus musculus with 12 samples.

Results

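The microRNAs (miRNAs) mmu-miR-221 and mmu-miR-222 (miR-221 and miR-222 below), the guide strands of a gene pair on the mouse X chromosome, were followed across the 4 treatment groups of a miRNA array study of 3T3-L1 cells. The members were chosen by name on the array and not by their measured values. They are 2 of the 611 mouse miRNAs on the array, and both were among the 157 that could be tested. The star strands of the pair were not analysed here.

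All 12 samples come from 3T3-L1, an established line of mouse fibroblasts that become fat cells when induced by hormones. The lithium plus MDI cells (n = 3) were given lithium chloride at 25 mM and the differentiation medium MDI, a mix of a phosphodiesterase inhibitor, dexamethasone and insulin. The lithium cells (n = 3) received lithium chloride at 25 mM alone. The MDI cells (n = 3) had MDI for 3 days, insulin for 2 days and plain medium for 2 days, up to day 7. The preadipocytes (n = 3) were cells that had not been induced. Lithium inhibits the kinase GSK3 and stands in this design for activated WNT signalling, while MDI stands for suppressed WNT signalling. The labels give no end day for any group but MDI, so time in culture cannot be told apart from treatment. Nor do they state that a group's 3 samples were separate cultures. Each p-value therefore reflects the spread among these particular samples, and that spread may be technical. No messenger RNA was measured here, so how far each culture had differentiated, and any target of the pair, were not measured. RNA was taken from whole cultures, in which fewer cells of a kind and less miRNA per cell cannot be told apart.

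miRNAs are short RNAs that pair with messenger RNAs, mainly through the seed near their 5′ end, and lower their translation and stability. miR-221 and miR-222 are cut from one primary transcript and repress Cdkn1b, which encodes p27, an inhibitor of the cyclin-dependent kinases that drive the cell cycle. By lowering p27 they favour entry into division, and they are abundant in dividing mesenchymal, endothelial and tumour cells. In 3T3-L1 cells p27 is high in growth-arrested preadipocytes and is lost while the cells divide after induction. The pair has been reported to fall during adipogenesis, which is the reason to look at it here.

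The mature sequences are shown because the pair shares its seed, given in capitals, while the rest of each strand differs in part. The array has separate probes for each member, but whether they also bind the other member was not tested. They come from RefSeq on build GRCm38.p6, where both members matched an entry under their current names, miR-221-3p and miR-222-3p.
mmu-miR-221-3p: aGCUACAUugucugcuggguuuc
mmu-miR-222-3p: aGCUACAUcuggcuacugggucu
The first 8 bases are identical, and 11 of the 23 positions carry the same base when counted without a gap. Shifting the strands against each other after the seed matches more bases. The seed (bases 2 to 8) occurs in 3 mature mouse miRNAs of the table, of which miR-221 and miR-222 are the 2 on the array. The precursor hairpins are shown next to place these strands, which are in capitals on the 3′ arm of each hairpin.
Mir221: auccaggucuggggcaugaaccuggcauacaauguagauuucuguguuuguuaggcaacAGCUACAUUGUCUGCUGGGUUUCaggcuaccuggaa
Mir222: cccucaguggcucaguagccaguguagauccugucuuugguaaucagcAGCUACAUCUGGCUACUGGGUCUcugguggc
On GRCm38.p6 both hairpins lie on the minus strand of chromosome X, Mir221 from 19146294 to 19146388 and Mir222 from 19146893 to 19146971. The 504 bases between them make a cluster of 678 bases in all.

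The arrays detected 126 to 178 mouse miRNAs each. Of 6 mesenchymal markers, among them miR-199a-3p, miR-214 and miR-21, 5 were detected on all 12 arrays and miR-145 on 8. Of 20 markers of other cell types, the epithelial miR-205 (3 arrays) and the neural miR-128 (7 arrays) were the 2 detected, and the endothelial miR-126-3p and miR-126-5p were detected on none. The arrays were run on 2 slides: slide 1 held the 3 preadipocyte arrays and MDI array 1, and slide 2 held the other 8. Over the tested miRNAs, 6 arrays correlated more closely with another group than with their own. The 3 of these with the lowest correlation with their own group are called the arrays that stood apart: lithium plus MDI array 3 (mean r 0.924 with its own group, 0.965 with the preadipocytes), lithium array 1 (0.942, against 0.960 with MDI) and preadipocyte array 3 (0.939, against 0.957 with lithium). Results that rest on them are given both ways. The 3 arrays were picked from these same data for resembling other groups, so leaving them out widens differences between groups by construction.

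Both members were measured well above background. Each had 2 probes of 10 spots, and all 234 spots of miR-221 and all 229 spots of miR-222 that were kept over the 12 arrays were marked as well above background, with none saturated. Spots of one probe on one array varied by a coefficient of variation of 1.02% to 5.33% for miR-221 and 1.77% to 9.58% for miR-222. The brighter and the dimmer probe of a member tracked each other over the 12 arrays, with r = 0.998 for miR-221 and 0.993 for miR-222 as a description across arrays that share these RNAs. The gap between the probes was 0.85 ± 0.04 on the log2 scale for miR-221 and 0.77 ± 0.07 for miR-222 (SD, n = 12). Values below are those of the brighter probe, A_54_P3830 for miR-221 and A_54_P2644 for miR-222.

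A level is given as the normalized log2 signal, where 0 is the signal of the array's 75th percentile over the 181 probes detected on all 12 arrays. Probes differ in brightness, so the level of miR-221 is not set against that of miR-222.

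mmu-miR-221 lay at -0.05, -0.07 and 0.08 on lithium plus MDI arrays 1 to 3. On lithium arrays 1 to 3 it lay at -0.33, -1.63 and -1.22. It lay at -0.21, 0 and -0.08 on the MDI arrays and at 0.04, -0.12 and -0.53 on the preadipocyte arrays. Lithium arrays 2 and 3 were thus the lowest of the 12, while lithium array 1 lay between the preadipocyte arrays. The group means were -0.01 ± 0.08 in lithium plus MDI cells, -1.06 ± 0.67 in lithium cells, -0.10 ± 0.11 in MDI cells and -0.20 ± 0.30 in preadipocytes (SD, n = 3 each). In order of level, lithium plus MDI, MDI and preadipocytes were neighbours that overlapped and differed by less than the widest SD among them, and lithium came last.

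mmu-miR-222 lay at -1.81, -2.30 and -1.59 on lithium plus MDI arrays 1 to 3. On lithium arrays 1 to 3 it lay at -2.06, -3.34 and -3.05. It lay at -1.98, -2.52 and -2.79 on the MDI arrays and at -1.67, -2.18 and -3.20 on the preadipocyte arrays. All 4 groups overlapped in part, and preadipocyte array 3 read as low as lithium arrays 2 and 3. The group means were -1.90 ± 0.36 in lithium plus MDI cells, -2.81 ± 0.67 in lithium cells, -2.43 ± 0.41 in MDI cells and -2.35 ± 0.78 in preadipocytes (SD, n = 3 each). In order of level these were lithium plus MDI, preadipocytes, MDI and lithium, and each neighbouring pair differed by less than the wider of its 2 SDs.

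**Figure D1:**
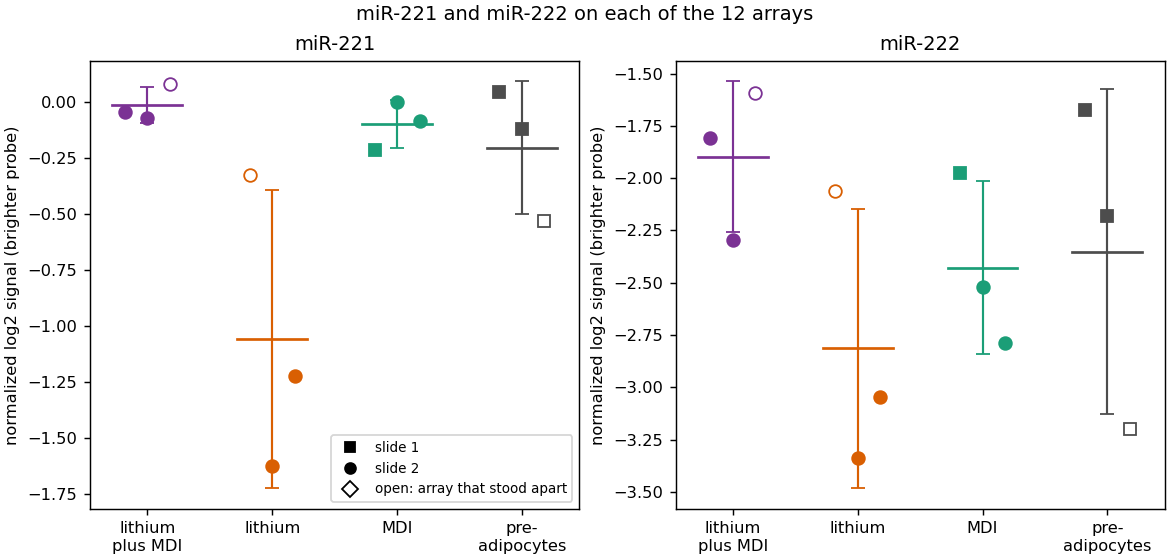
Normalized log2 signal of miR-221 (left) and miR-222 (right) on each array, by group, with the group mean (line) and SD (bar, n = 3). Squares are slide 1, circles slide 2, and open symbols the 3 arrays that stood apart; lithium arrays 2 and 3 are the lowest for miR-221, at -1.63 and -1.22.

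One test over all groups did not separate them for either member. The moderated F statistic over the 4 groups was 4.78 for miR-221 (limma adjusted p = 0.119) and 1.58 for miR-222 (adjusted p = 0.360), while 6.37% of the tested miRNAs passed. Without lithium array 1, F for miR-221 was 11.6 (adjusted p = 0.0146), and 9.55% of tested miRNAs passed, while without lithium array 2 it was 2.12. When the percentile came from every mouse probe rather than the detected ones, miR-221 passed too (F 7.36), as did 42% of tested miRNAs, and with no scaling (F 8.61), as did 40.1%. Leaving out all 3 arrays that stood apart, F was 21.1 for miR-221 and 6.60 for miR-222 (adjusted p = 0.00117 and 0.0187). There 66.2% of tested miRNAs passed, after a choice of arrays that raises F by construction.

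MDI induction is the comparison in which a fall of the pair was expected from earlier reports. Neither member differed between MDI cells and preadipocytes by more than the spread between arrays. For miR-221 the log2 difference was 0.10 (SE 0.31, 95% interval -0.57 to 0.78, limma adjusted p = 0.854), and the median difference of the 157 tested miRNAs was also 0.10. For miR-222 it was -0.08 (SE 0.42, interval -0.99 to 0.84, adjusted p = 0.906). The MDI arrays were higher in 5 of the 9 pairs of arrays for miR-221 and in 4 of 9 for miR-222. Of all tested miRNAs, 3.18% passed, 2 higher and 3 lower. The intervals leave room for a fall of miR-222 by up to 0.99 and of miR-221 by up to 0.57 on the log2 scale, and for rises of similar size.

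The sign of that comparison for miR-221, and its size for both members, depended on how the arrays were scaled. The signs were kept with quantile normalization (0.09 for miR-221 and -0.09 for miR-222), normexp background correction (0.12 and -0.19) and the authors' deposited table (0.14 and -0.12). That table may itself be quantile normalized, so it may not be a separate check. Before scaling, the brighter probe of miR-221 read 228, 382 and 323 intensity units on MDI arrays 1 to 3, against 517, 529 and 539 on the preadipocyte arrays. That of miR-222 read 67.3, 66.7 and 49.6 units on the MDI arrays and 158, 127 and 84.9 on the preadipocyte arrays. Both members were therefore dimmer on every MDI array before scaling, with no overlap. The whole array was dimmer as well: the percentile used for scaling was 264 to 382 units on the MDI arrays, against 503 to 780 on the preadipocyte arrays. With no scaling the log2 difference was -0.80 for miR-221 (adjusted p = 0.0602) and -0.98 for miR-222 (adjusted p = 0.0476), where 39.5% of tested miRNAs passed (1 higher, 61 lower) and the median of all was -0.70. The 75th percentile of all mouse probes was 2.68 to 5.97 units on the 12 arrays. At most 24.2% of the mouse spots of an array were marked well above background, so that percentile lies at or near undetected signals. Scaled by it, the log2 difference was -0.71 and -0.89 (adjusted p = 0.163 and 0.181), with a median of -0.64 and calls split 1 higher to 47 lower. Relative to the median of all tested miRNAs, miR-221 lay between -0.10 and 0.09 and miR-222 between -0.28 and -0.09 under these and quantile scaling. What made the MDI arrays dimmer was not tested.

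**Figure D2:**
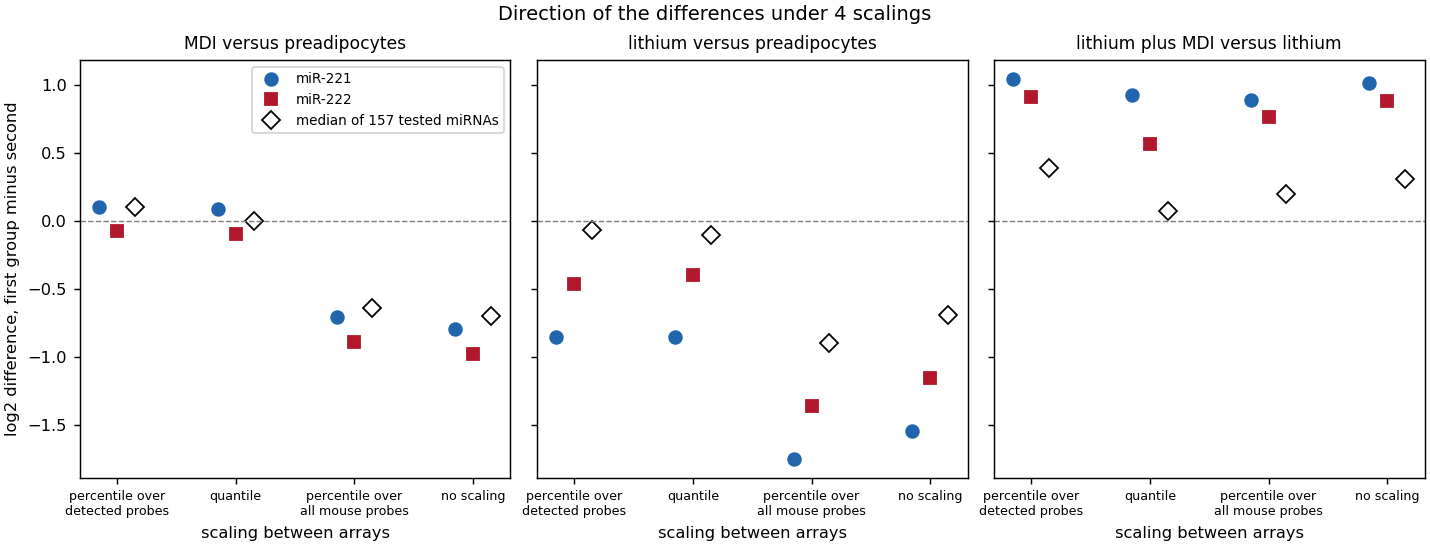
Log2 differences of miR-221, miR-222 and the median of the 157 tested miRNAs in 3 comparisons under 4 ways of scaling the arrays. After MDI the members move with the median and turn negative when scaled over all mouse probes (-0.71 and -0.89) and with no scaling (-0.80 and -0.98), while lithium plus MDI stays above lithium under all 4.

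Slide and group were mixed in this comparison, since MDI arrays 2 and 3 were on slide 2. When the slide entered as a block, which leaves MDI array 1 against the 3 preadipocyte arrays of its slide, the difference was -0.01 for miR-221 and 0.38 for miR-222 (adjusted p = 0.997 and 0.843). Leaving out the 3 arrays that stood apart gave -0.06 for miR-221 and -0.50 for miR-222 (adjusted p = 0.846 and 0.247). The sign for miR-222 turned with single arrays, to 0.26 without preadipocyte array 1, 0.0085 without preadipocyte array 2 and 0.10 without MDI array 3. Without preadipocyte array 3 it was -0.50, and miR-221 turned to -0.06.

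The lithium cells had the lowest group mean of each member. miR-221 lay 0.85 lower in lithium cells than in preadipocytes on the log2 scale, a 1.81-fold difference, but did not pass the threshold (difference -0.85, SE 0.31, 95% interval -1.53 to -0.18, limma adjusted p = 0.120). Lithium array 1 overlapped with the preadipocyte arrays, so the lithium arrays were higher in 1 of 9 pairs. miR-222 differed by -0.46 (SE 0.42, interval -1.38 to 0.45, adjusted p = 0.523) and was higher in 3 of 9 pairs. Of all tested miRNAs, 6.37% passed in this comparison, 8 higher and 2 lower, and their median difference was -0.07.

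Whether miR-221 passed depended on single arrays. Without lithium array 1 the difference was -1.22 (adjusted p = 0.0145), and 16.6% of tested miRNAs passed. Without preadipocyte array 3 it was -1.02 (adjusted p = 0.0497), and 21% of tested miRNAs passed. Without lithium array 2 it was -0.57 (adjusted p = 0.465). Leaving out all 3 arrays that stood apart gave -1.38 for miR-221 (SE 0.21, adjusted p = 0.00116) and -1.26 for miR-222 (SE 0.31, adjusted p = 0.00768), where 52.9% of tested miRNAs passed. Those arrays were set apart because they resembled other groups, so leaving them out widens differences between groups by construction.

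No slide held both lithium and preadipocyte arrays. With the slide as a block, which passes through the MDI arrays of both slides, miR-221 lay at -1.03 (SE 0.57, adjusted p = 0.451) and miR-222 at 0.22 (SE 0.76, adjusted p = 0.946). The direction for miR-221 was the same under the 4 scalings shown in the plot of scalings, from -0.85 to -1.75, and it lay 0.75 to 0.86 below the median of all tested miRNAs in each. For miR-222 these values were -0.40 to -1.36, or 0.29 to 0.46 below the median. With normexp the differences were -0.65 and -0.45 (adjusted p = 0.822 for each), which lay -0.29 and -0.09 from the median. Scaled over all mouse probes, both members passed (adjusted p = 0.00482 and 0.0344), as did 49.7% of the tested miRNAs, 4 higher and 74 lower. With no scaling both passed too (adjusted p = 0.00348 and 0.0229), as did 47.1%, 7 higher and 67 lower.

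**Figure D3:**
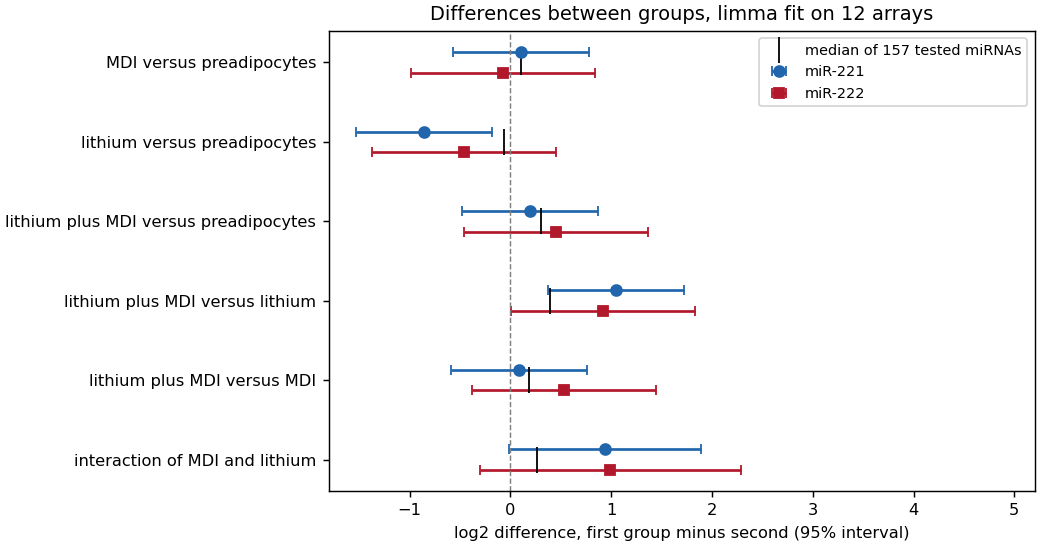
Log2 differences of miR-221 (circles) and miR-222 (squares) with 95% intervals in 5 comparisons and the interaction, with the median of the 157 tested miRNAs as a vertical tick. The intervals that lie to 1 side of 0 are those of miR-221 for lithium versus preadipocytes (-1.53 to -0.18) and of both members for lithium plus MDI versus lithium.

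MDI on top of lithium gave higher levels of both members than lithium alone, without passing the test. The log2 difference was 1.05 for miR-221, a 2.06-fold difference (SE 0.31, 95% interval 0.37 to 1.72, limma adjusted p = 0.0728), and 0.92 for miR-222, a 1.89-fold difference (SE 0.42, interval 0.00 to 1.83, adjusted p = 0.160). Neither passed, and none of the 157 tested miRNAs did (0%), although limma gave 48 (30.6%) with an unadjusted p under 0.05. All 3 lithium plus MDI arrays were above all 3 lithium arrays for miR-221, as was the case for 26.1% of tested miRNAs, and 8 of 9 pairs were higher for miR-222. The median of all tested miRNAs was 0.39, so miR-221 lay 0.65 and miR-222 0.52 above it.

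This comparison lies within slide 2, and its direction did not change with the scaling. Fitted on slide 2 alone, the differences were the same, with adjusted p = 0.0716 for miR-221 and 0.118 for miR-222. Under the other 3 scalings they were 0.89 to 1.01 for miR-221 and 0.57 to 0.88 for miR-222. With normexp they were 0.84 and 0.51 (adjusted p = 0.990 for each), and the authors' deposited table gave 0.82 and 0.49 (adjusted p = 0.121 and 0.518). Before scaling, the brighter probe of miR-221 read 257, 378 and 503 units on the lithium plus MDI arrays, against 252, 133 and 177 on the lithium arrays. That of miR-222 read 75.7, 80.8 and 158 units on the lithium plus MDI arrays, against 75.8, 40.6 and 50.1 on the lithium arrays. The groups did not overlap for miR-221, by a narrow margin at lithium array 1, and overlapped there for miR-222. Without lithium array 1 the differences were 1.41 for miR-221 (adjusted p = 0.00991) and 1.29 for miR-222 (adjusted p = 0.0491), where 20.4% of tested miRNAs passed. Without preadipocyte array 3, which changes only the spread in the fit, miR-221 also passed (1.05, adjusted p = 0.0481), with 15.3% of tested miRNAs. Leaving out the 3 arrays that stood apart gave 1.37 and 1.14 (adjusted p = 0.000751 and 0.0121), where 56.1% of tested miRNAs passed. That choice of arrays widens differences between groups by construction.

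Neither member differed between lithium plus MDI cells and preadipocytes, or MDI cells, by more than the spread between arrays, with intervals that reach 1.37 and 1.44 for miR-222. Against preadipocytes the log2 difference was 0.19 for miR-221 (SE 0.31, interval -0.48 to 0.87, limma adjusted p = 0.724) and 0.45 for miR-222 (SE 0.42, interval -0.46 to 1.37, adjusted p = 0.560), where 1.27% of tested miRNAs passed. Of all 157 tested miRNAs, 106 were positive there, with a median of 0.30. No slide held arrays of both these groups, and with the slide as a block the differences were 0.02 for miR-221 and 1.13 for miR-222 (adjusted p = 0.979 and 0.607). Both turned negative when scaled over all mouse probes (-0.86 and -0.60, with calls split 0 higher to 44 lower, against 2 to 0), unscaled (-0.53 and -0.27), or leaving out the 3 arrays that stood apart (-0.02 and -0.12). Against MDI cells it was 0.09 for miR-221 (interval -0.59 to 0.76, adjusted p = 0.981) and 0.53 for miR-222 (interval -0.38 to 1.44, adjusted p = 0.783), where 0% of tested miRNAs passed and limma gave 6 (3.82%) with an unadjusted p under 0.05. miR-222 was higher in 8 of 9 pairs and miR-221 in 7 of 9. Of all 157 tested miRNAs, 114 were positive against MDI, with a median of 0.18, and miR-221 lay below that median.

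The interaction asks whether MDI changes the pair by a different amount in lithium-treated than in untreated cells. It was 0.94 for miR-221 (SE 0.44, interval -0.01 to 1.89, limma adjusted p = 0.229) and 0.99 for miR-222 (SE 0.60, interval -0.30 to 2.28, adjusted p = 0.386), with a median of 0.26 over all tested miRNAs. No tested miRNA passed (0%), and limma gave 35 (22.3%) with an unadjusted p under 0.05. The difference between 1.05 with lithium and 0.10 without it for miR-221 was thus not shown. Leaving out the 3 arrays that stood apart, the interaction was 1.43 for miR-221 and 1.64 for miR-222 (adjusted p = 0.00411 and 0.0118). There 43.9% of tested miRNAs passed, after a choice of arrays that widens differences between groups by construction. With no scaling the interaction was 1.81 and 1.86 (adjusted p = 0.0103 and 0.0145), where 38.9% passed. For miR-222 it was smaller with the slide as a block (0.54, adjusted p = 0.740), in the authors' deposited table (0.60), with quantile normalization (0.66) and with normexp background correction (0.69). For miR-221 it was 0.68 in the authors' deposited table and 0.71 with normexp. The offset added in normexp shrinks log2 differences of dim probes by construction.

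The members varied together from array to array. Over the 12 arrays miR-221 and miR-222 correlated at r = 0.761 (Spearman rho 0.741), and their deviations from the group means at r = 0.770. These are descriptions of arrays in 4 groups, whose values share the scaling of each array. Binding of a member's probes to the other member was not tested and could add to this likeness. Without lithium arrays 2 and 3, the farthest from the median of miR-221, r was 0.628. Among the other tested miRNAs 15 correlated with miR-221, and 10 with miR-222, more closely than the members did with each other.

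**Figure D4:**
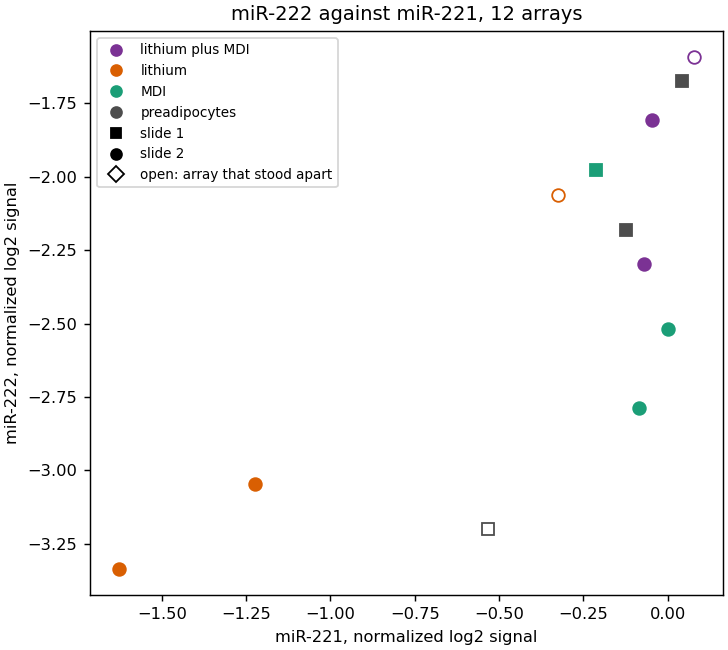
Normalized log2 signal of miR-222 against that of miR-221 on the 12 arrays, coloured by group. Lithium arrays 2 and 3 lie farthest left, preadipocyte array 3 lies between them in miR-222 (-3.20) at a miR-221 level of -0.53, and MDI arrays 2 and 3 are low in miR-222 (-2.52 and -2.79) with miR-221 at 0 and -0.08. Squares are slide 1, circles slide 2, and open symbols the arrays that stood apart.

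The gap between the members within an array is unaffected by dividing that array by a single value, though quantile normalization changes it. On the log2 scale, miR-222 minus miR-221 was -1.89 ± 0.30 in lithium plus MDI cells, -1.76 ± 0.06 in lithium cells, -2.33 ± 0.50 in MDI cells and -2.15 ± 0.48 in preadipocytes (SD, n = 3 each). The lithium arrays were the most alike in this gap, at -1.74, -1.71 and -1.82, although lithium array 1 differed from the other two in the level of both members. The groups did not separate in any of 5 comparisons by an exact two-sided permutation test. The shift was -0.18 for MDI against preadipocytes (exact p = 0.7), 0.39 for lithium against preadipocytes (0.3), 0.26 for lithium plus MDI against preadipocytes (0.6), -0.13 for lithium plus MDI against lithium (0.8) and 0.44 for lithium plus MDI against MDI (0.3). With quantile normalization the last 2 shifts were -0.36 and 0.28, and that for lithium plus MDI against preadipocytes was 0.098. Adjusted over the 5, p was 0.75 to 0.8, and 3 arrays against 3 cannot give a p below 0.1.

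The miRNAs whose levels followed the pair most closely over the 12 arrays were named by the highest Pearson r, again as a description across arrays that share their scaling. For miR-221 these were miR-29a (r = 0.865), which represses collagen genes, miR-23a (0.836), miR-34c (0.835), a p53-induced miRNA, miR-24 (0.822) and miR-34b-5p (0.820). For miR-222 they were miR-324-5p (0.895), miR-24 (0.881), miR-23b (0.872), miR-29a (0.865) and miR-27b (0.851). The sixth in each ranking stood at 0.817 and 0.832, and the median r over 155 miRNAs was 0.326 for miR-221 and 0.297 for miR-222. Of these 8 miRNAs, miR-23a, miR-23b, miR-24 and miR-27b belong to the miR-23/27/24 clusters. miR-24, named for both members, averaged 2.26 in lithium plus MDI cells, 1.23 in lithium cells, 1.91 in MDI cells and 1.82 in preadipocytes. The ranking was not stable, since with quantile normalization 1 of the 5 named for miR-221 and 2 of the 5 named for miR-222 were named again.

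Of 20 other miRNAs reported to inhibit fat cell differentiation, 16 were tested. After MDI none of them rose or fell past the threshold against preadipocytes (6 of 16 positive, median log2 difference -0.14). Every tested let-7 member was negative (from let-7f at -0.04 to let-7c at -0.86), as were miR-130a (-0.04) and miR-155. The 6 positive ones all lay outside the let-7 family, so related let-7 sequences weigh on this count and median. Of all 157 tested miRNAs, 89 were positive and 3.18% passed, with a median of 0.10. miR-155, an immune-linked miRNA, averaged -1.44 ± 0.13 in MDI cells and -0.40 ± 0.85 in preadipocytes (difference -1.04, limma adjusted p = 0.155). miR-27a, which represses Pparg, averaged 1.87 ± 0.22 in MDI cells and 1.00 ± 0.06 in preadipocytes (0.87, adjusted p = 0.0595). let-7c (-0.86, adjusted p = 0.290) and let-7i (-0.65, adjusted p = 0.251), of the let-7 family that represses growth genes, lay lower in MDI cells without passing.

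In lithium plus MDI against lithium, 112 of all 157 tested miRNAs were positive and 0% passed, with a median of 0.39. Of the 16 tested miRNAs of this list, 13 were positive and none passed, with a median of 0.51. miR-27b (1.57, limma adjusted p = 0.0849), miR-31 (0.95, 0.144), miR-155 (0.90, 0.144) and let-7d (0.86, 0.105) had the largest differences. In the remaining comparisons miR-155 fell in lithium cells against preadipocytes (-1.42, adjusted p = 0.0382), where 6.37% of tested miRNAs passed. miR-27a rose in lithium plus MDI cells against preadipocytes (1.31, adjusted p = 0.0133), where 1.27% passed. No slide held both groups of either comparison, and with the slide as a block neither passed (miR-155 -1.49, adjusted p = 0.363; miR-27a 1.68, adjusted p = 0.0535). The miR-155 call was lost in 5 of 11 alternatives and on leaving out any of 8 of the 12 arrays, and the miR-27a call in 5 of 11, among them no scaling (0.58) and scaling over all mouse probes (0.26), and on leaving out either of 2 arrays.

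Other miRNAs reported to target Cdkn1b, or its relative Cdkn1a, which encodes the inhibitor p21, went in both directions after MDI. Of 11 listed, 10 were on the array and 9 were tested. Among all 157 tested miRNAs, 89 were positive, 3.18% passed and the median was 0.10. Of the 9, 6 were positive, 1 passed the threshold and the median was 0.33. That 1 was miR-181a, which fell to -3.18 ± 0.45 in MDI cells, against -1.53 ± 0.25 in preadipocytes (difference -1.65, SE 0.38, limma adjusted p = 0.0277). The call was lost in 4 of 11 alternatives, among them the slide as a block (-1.19, adjusted p = 0.250), and on leaving out any of 5 of the 12 arrays: preadipocyte array 1 or 2, MDI array 2 or 3, or lithium array 3. miR-20a (1.38), of the miR-17-92 cluster, and miR-20b (1.34), of a related cluster, are both reported to target Cdkn1a. Both lay higher without passing (adjusted p = 0.0830 for each). miR-196a lay 1.53 higher (adjusted p = 0.203), a lower bound because its 3 preadipocyte values were at the floor set for dim signals. In lithium plus MDI against lithium none of the 9 passed (6 positive, median 0.34). Of all 157 tested miRNAs, 112 were positive and 0% passed, with a median of 0.39. miR-24, reported to target Cdkn1b, lay 1.04 higher (adjusted p = 0.0849), miR-93 0.57 higher (0.312) and miR-20b 0.48 higher (0.424), while miR-148a differed by -0.51 (0.387).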

How the data were processed

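Single-colour Agilent miRNA arrays of 12 samples were analysed from the scanner files. Per the file headers, the intensity of each spot was background-subtracted by Agilent Feature Extraction 10.5.1.1 (9.5.3 per the submitters' processing notes) and not normalized between arrays. The authors also deposited a table of log2 values; its values are read as log2 because they correlate at r = 0.991 or above with the log2 total signal, and its normalization is not given in the sources used here. Spots marked as outliers were dropped and the rest averaged per probe. Signals were then scaled to the array's 75th percentile among the 181 probes detected on all arrays (over 50% of spots well above background), set to a floor at the 5th percentile of detected values (-4.97 on the log2 scale) and log2-transformed. The brightest probe stood for a miRNA. The 157 miRNAs detected on all 3 arrays of a group were fitted by limma (version 3.58.1, R 4.3.3) as 4 group means on all 12 arrays (two-sided, Benjamini-Hochberg over 157, threshold 0.05), after a test on simulated data. limma's 95% intervals use its moderated degrees of freedom. Exact permutation tests used scipy 1.17.1. The number of arrays limits the precision. Raw mean signals were not used, so normexp (offset 50) ran on median signals. The offset shrinks log2 differences of dim probes, such as the brighter probe of miR-222, which read 40.6 (lithium) to 158 (lithium plus MDI) units. The members and lists were chosen with earlier results of these data known. Named were both members, the 5 miRNAs most correlated with each, and up to 4 per list with the largest differences after MDI with and without lithium, besides list members past the threshold, chosen after their values were seen. The replicate numbers were checked for pairing. Same-numbered arrays of different groups correlated in their deviations from the group means at a median r of 0.06, and 9 of 18 pairs were above 0.1. Differently numbered arrays had a median r of -0.06, with 11 of 36 pairs above 0.1. The labels do not say whether a number marks a shared culture or batch, and this check cannot settle it. The main fit has no block, and the replicate block is given as an alternative.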

Additional observations from a re-analysis of the deposited data

How the results depend on the processing

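Besides leaving out single arrays, 12 alternatives were fitted for each member and comparison, plus slide 2 alone for lithium plus MDI against lithium or MDI; the unscaled fit, the dimmer probes, quantile normalization of the within-array gap and the settings run on the 3 called list miRNAs were chosen after seeing the data. No call was lost, since neither member passed at first. F over the 4 groups passed for miR-221 with the percentile over all mouse probes (7.36), no scaling (8.61) and without the 3 arrays that stood apart (21.1), and for miR-222 without those arrays (6.60). Other new calls and sign changes stand beside their results, at -1.75, -1.55 and -1.38 (miR-221) and -1.36, -1.15 and -1.26 (miR-222) for lithium against preadipocytes. For lithium plus MDI against lithium they were 1.37 and 1.14, for the interaction 1.43, 1.81, 1.64 and 1.86, and for miR-222 after MDI -0.98. Sign changes after MDI were -0.71, -0.80, -0.0094 and -0.059 (miR-221) and 0.38 (miR-222), and for miR-222 under lithium with the slide block 0.22. Against preadipocytes, lithium plus MDI turned to -0.86, -0.53 and -0.018 (miR-221) and -0.60, -0.27 and -0.12 (miR-222). Against MDI, miR-221 turned to -0.15 with the percentile over all mouse probes, -0.011 with quantile normalization and -0.056 in the authors' table. The within-array gap for lithium plus MDI against preadipocytes turned to -0.13 with normexp and -0.11 without the 3 arrays. The cause of these changes was not tested. With the replicate block the differences were unchanged and neither member's calls changed, while that on miR-155 under lithium was lost (-1.42, adjusted p = 0.0515; for lithium plus MDI against lithium, miR-221 1.05 with adjusted p = 0.0515 and miR-222 0.92 with 0.0882), while the count past the threshold there moved from 0 to 16 of the tested miRNAs; 4 of 12 arrays correlated best with their own number.

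Leaving out 1 array at a time, the ranges for miR-221 and miR-222 were -0.059 to 0.23 and -0.50 to 0.26 for MDI against preadipocytes, -1.22 to -0.57 and -0.89 to -0.12 for lithium against preadipocytes, 0.03 to 0.31 and 0.03 to 0.79 for lithium plus MDI against preadipocytes, 0.76 to 1.41 and 0.66 to 1.29 against lithium, 0.03 to 0.14 and 0.35 to 0.76 against MDI, 0.66 to 1.31 and 0.65 to 1.42 for the interaction, and 2.12 to 11.6 and 0.85 to 3.13 for F. The within-array gap ranged from -0.46 to 0.035 (MDI against preadipocytes), 0.13 to 0.61 (lithium against preadipocytes), 0.00099 to 0.48 (lithium plus MDI against preadipocytes), -0.24 to 0.040 (against lithium) and 0.26 to 0.73 (against MDI). Counts past the threshold over all tested miRNAs moved with the setting: from 5 to between 0 and 62 for MDI against preadipocytes, from 10 to between 0 and 83 for lithium against preadipocytes, from 2 to between 0 and 44 for lithium plus MDI against preadipocytes, from 0 to at most 88 against lithium and from 0 to at most 69 for the interaction. Against MDI they were 0 throughout. Of the 5 miRNAs most like miR-221 and miR-222, 2 and 1 were shared with normexp and 1 and 3 in the authors' table.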
